A study of Mus musculus with 4 samples.

Results

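The transcripts described here are those of 10 genes that make prostaglandins or receive them: the cyclooxygenases Ptgs1 and Ptgs2, the terminal synthases Ptges, Ptges2, Ptgds and Ptgis, and the PGE2 receptors Ptger1, Ptger2, Ptger3 and Ptger4. They were chosen by gene symbol, and all 10 were found among the 25393 genes listed for RNA-seq of cultured mouse astrocytes. The study compared wild-type (WT) astrocytes with those of Tet1 constitutive knockout (KO) pups, in which the whole body is meant to lack Tet1, the enzyme that oxidises 5-methylcytosine in DNA, to see which mRNAs differ. There were 2 libraries labelled wild type and 2 labelled tet1-/-, all from untreated C57BL/6 cortex and hippocampus at postnatal day 1. Each isolation pooled 2 mice, and the cells grew for about 7 days, were shaken at 260 rpm and were collected 24 h later. The study calls its repeats biological and reports more of them per genotype than the 2 libraries per label used here. The labels do not say that these libraries came from separate cultures. The p-values below therefore measure only the spread between these libraries, which may be in part technical. The values, called normalized counts, are reads per gene scaled by 1 size factor per library, from 18749610 to 22673555 reads on genes per library.

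Prostaglandins are lipid signals made from arachidonic acid, which phospholipases cut from membranes. A cyclooxygenase turns it into the unstable PGH2, and a terminal synthase then sets the product, such as PGE2, PGD2 or prostacyclin. PGE2 acts through G protein-coupled receptors, of which EP1 raises calcium, EP2 and EP4 raise cyclic AMP and EP3 mostly lowers it. In brain, these lipids are known for their part in fever, blood flow and inflammation, and cultured glia are a common system for the induced genes Ptgs2 and Ptges.

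The sequences upstream of Ptges, Ptgs1 and Ptgs2 are shown because Ptges had the lowest p of the 10 genes and because the cyclooxygenase genes are the constitutive and the induced form of the same step. Each line gives the 250 bases before a RefSeq transcript start on GRCm38.p6, 5′ to 3′ on the strand of the gene. The capitals mark the GC box GGGCGG, bound by factors of the Sp and Egr families, and the palindrome TTGCGCAA, a C/EBP motif. The windows are chr2:30903298-30903547 on the minus strand for Ptges, chr2:36230176-36230425 on the plus strand for Ptgs1 and chr1:150099781-150100030 on the plus strand for Ptgs2.
Ptges: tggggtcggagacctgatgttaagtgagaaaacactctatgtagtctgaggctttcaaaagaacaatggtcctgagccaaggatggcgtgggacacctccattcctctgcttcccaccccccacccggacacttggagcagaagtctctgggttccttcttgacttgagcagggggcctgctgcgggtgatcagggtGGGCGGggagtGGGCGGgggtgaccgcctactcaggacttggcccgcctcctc
Ptgs1: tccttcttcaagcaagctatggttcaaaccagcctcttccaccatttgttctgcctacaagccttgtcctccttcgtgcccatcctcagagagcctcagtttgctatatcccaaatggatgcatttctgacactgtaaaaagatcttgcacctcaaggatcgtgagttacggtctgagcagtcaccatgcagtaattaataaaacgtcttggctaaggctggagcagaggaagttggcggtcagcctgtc
Ptgs2: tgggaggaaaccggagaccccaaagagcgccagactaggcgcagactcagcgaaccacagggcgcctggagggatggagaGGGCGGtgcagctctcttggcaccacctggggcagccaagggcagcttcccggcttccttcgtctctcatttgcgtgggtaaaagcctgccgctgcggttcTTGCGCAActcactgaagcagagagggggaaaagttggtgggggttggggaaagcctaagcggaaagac

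The Ptges window held 2 GC boxes, whose first bases lie at -53 and -42 from the start, and 8 CpG dinucleotides, the bases that Tet1 acts on when they are methylated. The Ptgs2 window held 1 GC box at -170, 1 C/EBP palindrome at -69 and 13 CpG dinucleotides. The Ptgs1 window held 5 CpG dinucleotides and no match. Both strands were searched, and no match overlapped another in these 3 windows. Of 32851 RefSeq windows of this length, 32.7% held a GC box and 0.164% the C/EBP palindrome, and the median was 6 CpG dinucleotides. The E-box CACGTG (6.02% of windows), the CRE half-site TGACGT (6.47%), the TATA box TATAAA (12.4%), the sequence CCAAT (33.8%) and the NF-kB consensus (7.25%) had no match in these 3 windows. Bases after these starts, or further upstream, were not searched, so the promoters may hold such motifs outside the windows. Windows were given for 8 of the 10 genes, not for Ptgis or Ptger1. Among the others, Ptger3 and Ptger4 held the most CpG dinucleotides, 21 and 19, with 3 and 4 GC boxes, of which those at -148 and -143 in Ptger4 overlap. Ptgds held 2 CpG dinucleotides and an NF-kB consensus match, Ptges2 held 15 and an E-box, and Ptger2 held 3 and the sequence CCAAT. These matches describe letters and not bound sites.

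Tet1 itself was not lower in the KO-labelled libraries. It had 266 and 121 normalized counts in WT, against 173 and 463 in the KO-labelled libraries (log2 fold change 0.66, limma adjusted p = 0.691), and a total over all exons cannot show whether the targeted part is missing. They are therefore called KO-labelled libraries, and every direction below rests on that label. In labelled KO replicate 2, the mural marker list summed to more than the astrocyte list per gene length. Nearly all of that mural sum was Acta2, as given with the cell type markers at the end. The test of genotype was limma on log2(normalized count + 1), on which the change of low genes comes out too small, for the 22094 genes averaging 1 or more. In limma 0 genes reached an adjusted p under 0.05, while 3032 had an unadjusted p under 0.05. Adjusted counts were 0 with edgeR (2733 unadjusted) and 1106 with DESeq2 on the reads recovered from the same values. With 2 libraries per group, the smallest two-sided p of an exact permutation test on 1 gene is 0.333.

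Of the 10 genes, 8 had a negative log2 fold change (KO-labelled minus WT), 6 after quantile normalization, and the 4 terminal synthases were among them under both scalings. Of all 22094 genes tested, 11857 had a negative one, and the median of all genes was 0.08 after quantile normalization. All 10 passed the filter on low values. An unadjusted p under 0.05 was reached by 3 genes that were lower (Ptges, Ptgds and Ptger2) and by 0 that were higher, against 9.18% and 4.54% of all genes tested. Ptges alone reached it with a pseudocount of 0.1, in edgeR and without WT replicate 2. The labels did not overlap for 5 of the 10 genes (47.9% of all genes). Both KO-labelled libraries lay below both WT libraries for these 5, namely the 4 terminal synthases and Ptger2, and above them for 0. This compares with 25.4% below and 22.5% above among all genes. The median log2 fold change was -0.83 over the 10 genes and -0.07 over all genes tested. With Benjamini-Hochberg adjustment over all genes, 0 of the 10 passed in limma (0% of all genes) and 0 in edgeR. DESeq2 called Ptges and none of the other 9 (6.5% of the genes with an adjusted p in DESeq2 were called, 4.8% lower and 1.69% higher).

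**Figure D1:**
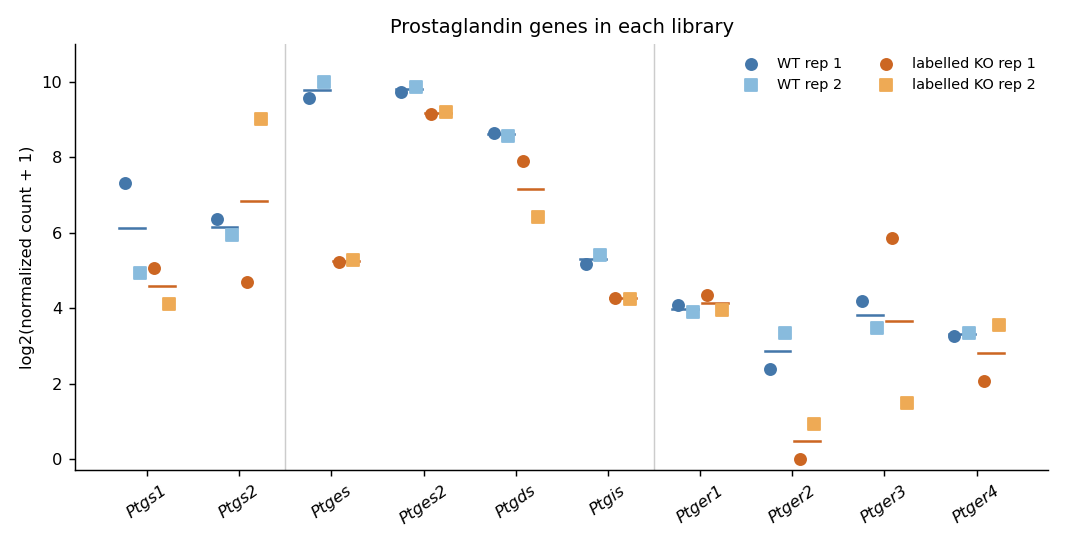
Log2(normalized count + 1) of each prostaglandin gene in the 4 libraries, with circles for replicate 1, squares for replicate 2 and bars for the mean of each label. The KO-labelled libraries lie below both WT libraries for Ptges, Ptges2, Ptgds, Ptgis and Ptger2, and they lie far apart from each other for Ptgs2 and Ptger3.

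Ptges (ENSMUSG00000050737, chromosome 2 from 30889471 to 30929863 of GRCm38, minus strand) encodes the inducible membrane-bound PGE synthase that works downstream of the cyclooxygenases. Its WT libraries held 765 and 1019 normalized counts, against 36.4 and 37.9 in the KO-labelled libraries. The groups were far apart, and the libraries within each lay close together, with 892 ± 179.5 (SD, n = 2) against 37.1 ± 1.03 (SD, n = 2). On the log2 scale the difference was -4.54 (standard error, SE, 0.39, 95% interval -5.51 to -3.56), or 23.2-fold on the log scale. Its unadjusted p of 4.89e-05 was rank 8 among the 22094 genes, and its adjusted p of 0.0777 (limma, Benjamini-Hochberg) was the lowest reached by any gene, shared by 30 genes. The 4 log2 differences between single libraries of the 2 labels ran from -4.77 to -4.30. edgeR gave -4.62 with an adjusted p of 0.0843, and DESeq2 gave -4.59 with an adjusted p of 4.48e-17. The RefSeq start whose upstream bases are printed above lies inside the gene span given in the file, which includes longer transcripts. No other annotated gene shares exonic bases with Ptges.

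The other PGE synthase of the list, Ptges2 (ENSMUSG00000026820, chromosome 2 from 32395896 to 32405772, plus strand), encodes a membrane-associated enzyme that is expressed without induction in many tissues. It had 847 and 928 normalized counts in WT, against 563 and 586 in the KO-labelled libraries. The groups did not overlap, but the difference was small, a log2 fold change of -0.63 (SE 0.29, 95% interval -1.35 to 0.10, limma adjusted p = 0.42). The gap between Ptges and Ptges2 can also be read per gene length, as FPKM. In the WT libraries Ptges stood at 1.16 and 1.41 times the FPKM of Ptges2, while in both KO-labelled libraries the ratio was 0.0832 and 0.0831. With the cytosolic PGE synthase Ptges3 included, Ptges made up 14.5% and 16.3% of the summed FPKM of the 3 PGE synthases in WT, against 0.692% and 0.606% in the KO-labelled libraries. Ptges3, which also serves as an Hsp90 co-chaperone, held 73.1% and 72.2% in WT, against 91.0% and 92.1% in the KO-labelled libraries. The summed FPKM itself was 67.3 and 76.5 in WT, against 60.4 and 78.7 in the KO-labelled libraries, so that its groups overlapped.

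Ptgds (ENSMUSG00000015090, chromosome 2 from 25466709 to 25470046, minus strand) encodes the lipocalin-type PGD synthase, abundant in the meninges, choroid plexus and oligodendrocytes of brain. It had 398 and 380 normalized counts in WT, against 239 and 83.8 in the KO-labelled libraries. Both KO-labelled libraries were lower, replicate 2 more so. The log2 fold change was -1.45 (SE 0.57, unadjusted p = 0.0489, limma adjusted p = 0.363), and it was -0.70 without labelled KO replicate 2 and -2.20 without replicate 1. Ptgis (ENSMUSG00000017969, chromosome 2 from 167191805 to 167240604, minus strand) encodes prostacyclin synthase, an enzyme typical of vessel walls. It was low, at 35.2 and 41.4 normalized counts in WT, against 18.2 and 18.0 in the KO-labelled libraries, with a log2 fold change of -1.04 (SE 0.59, limma adjusted p = 0.492), and -0.48 after quantile normalization. An antisense transcript, 1110018N20Rik, shares 6.08% of its exonic bases. Summed over the 4 terminal synthases, the FPKM was 30.9 and 33.0 in WT, against 12.3 and 9.08 in the KO-labelled libraries. Ptges held 31.5% and 37.6% of that sum in WT, against 3.40% and 5.25% in the KO-labelled libraries, in which Ptges2 or Ptgds held the largest share.

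**Figure D2:**
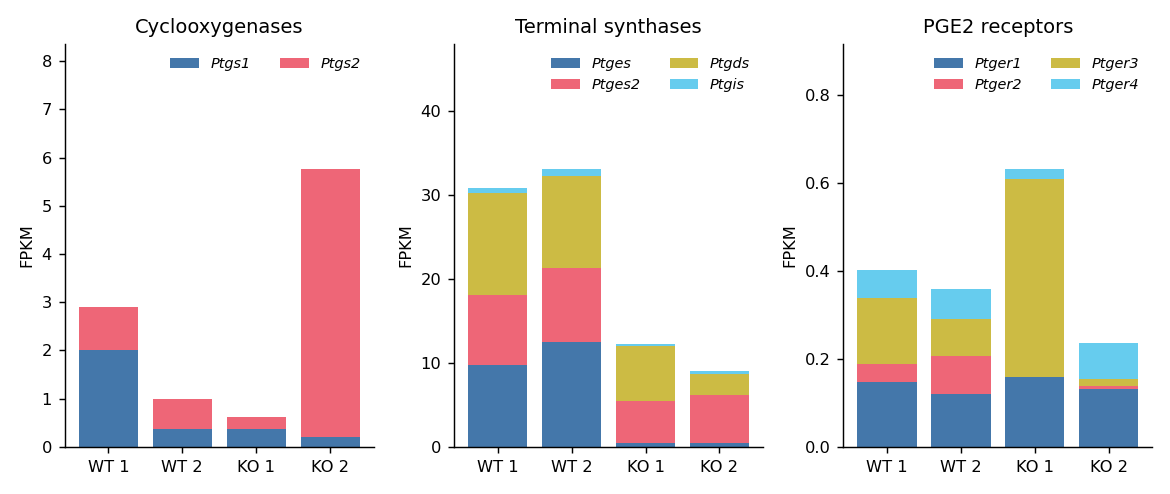
FPKM of the cyclooxygenases, the terminal synthases and the PGE2 receptors, stacked in each WT library and each KO-labelled library (KO 1 and KO 2), with a different scale on each axis. The synthase bars are lower in both KO-labelled libraries, where the Ptges part is nearly gone, and the tall cyclooxygenase bar of labelled KO replicate 2 is almost all Ptgs2.

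The cyclooxygenase genes did not separate the labels. Ptgs1 (ENSMUSG00000047250, chromosome 2 from 36230426 to 36252272, plus strand), the constitutive form, had 157 and 29.4 normalized counts in WT, against 32.1 and 16.2 in the KO-labelled libraries. WT replicate 1 stood apart, and WT replicate 2 lay between the KO-labelled libraries. The log2 fold change was -1.54 (SE 0.94, 95% interval -3.91 to 0.84, limma adjusted p = 0.523), and it was -0.35 without WT replicate 1 and -2.72 without WT replicate 2. A single-exon transcript on the opposite strand, Gm43621, shares 3.81% of the exonic bases of Ptgs1.

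Ptgs2 (ENSMUSG00000032487, chromosome 1 from 150100031 to 150108227, plus strand), the form induced by cytokines, growth factors and neuronal activity, had 81.1 and 60.7 normalized counts in WT, against 24.6 and 514 in the KO-labelled libraries. Labelled KO replicate 1 lay below both WT libraries and replicate 2 above both, 4.33 apart on the log2 scale. The log2 fold change of 0.69 (SE 1.39, 95% interval -2.81 to 4.19, limma adjusted p = 0.854) therefore rests on labelled KO replicate 2, without which it was -1.47. With all 4 libraries it was 1.87 in edgeR and 1.93 in DESeq2. No annotated gene overlaps Ptgs2. Per gene length, Ptgs2 stood at 0.438 and 1.75 times the FPKM of Ptgs1 in WT, against 0.65 and 26.9 times in the KO-labelled libraries. The library with the highest Ptgs2 was not the one with the highest Ptges: with 20.9 times the Ptgs2 of labelled KO replicate 1, replicate 2 had 1.04 times its Ptges.

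**Figure D3:**
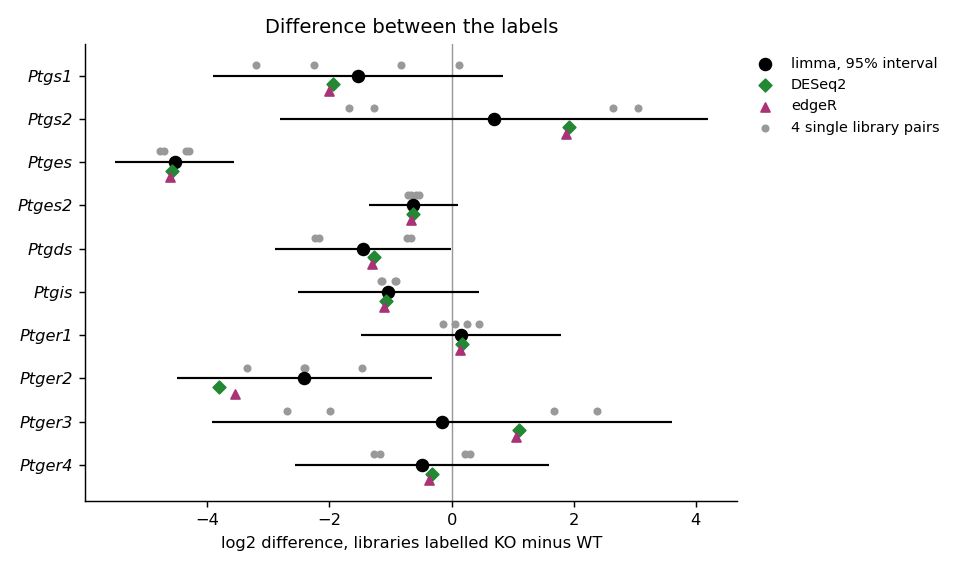
Log2 difference between the KO-labelled libraries and WT for each gene, as the limma estimate on log2(normalized count + 1) with its 95% interval, the DESeq2 and edgeR estimates on recovered reads, and the 4 differences between single libraries (grey). The interval of Ptges lies from -5.51 to -3.56, while the grey points of Ptgs2 and Ptger3 fall on both sides of 0.

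The receptor genes had low levels throughout. Per gene length, the highest value in any library was 0.45 FPKM, whereas the member synthases other than Ptgis averaged from 5.76 to 8.04 FPKM over the 4 libraries. A count of 3 reads, taken as the floor, corresponds to 2.70 to 3.21 normalized counts, and such intervals and floors cover counting error only. Ptger2 (ENSMUSG00000037759, chromosome 14 from 44988195 to 45003820, plus strand), which encodes EP2, had 4.27 and 9.20 normalized counts in WT, against 0 and 0.901 in the KO-labelled libraries. These are 14 reads in WT and 1 read in the KO-labelled libraries, a ratio of 0.0708 with an exact 95% interval of 0.00167 to 0.465. The fitted log2 fold change of -2.41 (SE 0.83, unadjusted p = 0.0306, limma adjusted p = 0.322) depends on the pseudocount at this depth, being -4.33 with 0.1 and -1.08 with 5, and DESeq2 gave no adjusted p. The antisense genes Gm49364 and Gm17173 share 2.77% and 4.74% of its exonic bases.

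Ptger3 (ENSMUSG00000040016, chromosome 3 from 157566892 to 157645888, plus strand), which encodes EP3, had 17.1 and 10.1 normalized counts in WT, against 56.7 and 1.80 in the KO-labelled libraries. As with Ptgs2, the KO-labelled libraries lay on either side of WT, but here replicate 1 was the high one. Its log2 fold change was -0.16 (SE 1.50, limma adjusted p = 0.975), with the opposite sign, 0.19, after quantile normalization and 1.10 in DESeq2. Ptger4 (ENSMUSG00000039942, chromosome 15 from 5206661 to 5244187, minus strand), which encodes EP4, had 8.54 and 9.20 normalized counts in WT, against 3.21 and 10.8 in the KO-labelled libraries. Its log2 fold change was -0.48 (SE 0.83, limma adjusted p = 0.829), and 0.044 after quantile normalization. A pseudogene on the opposite strand, Gm15937, shares 15.3% of its exonic bases. Ptger1 (ENSMUSG00000019464, chromosome 8 from 83666678 to 83672753, plus strand), which encodes EP1, had 16 and 13.8 normalized counts in WT, against 19.3 and 14.4 in the KO-labelled libraries. The labels overlapped, with a log2 fold change of 0.16 (SE 0.65, 95% interval -1.49 to 1.80, limma adjusted p = 0.938), and 0.69 after quantile normalization. The sources used here do not state whether counting used strand, and without it the reads of genes that overlap on opposite strands cannot be told apart, so that the values of Ptger1 and of the other genes with such overlaps are uncertain.

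**Figure D4:**
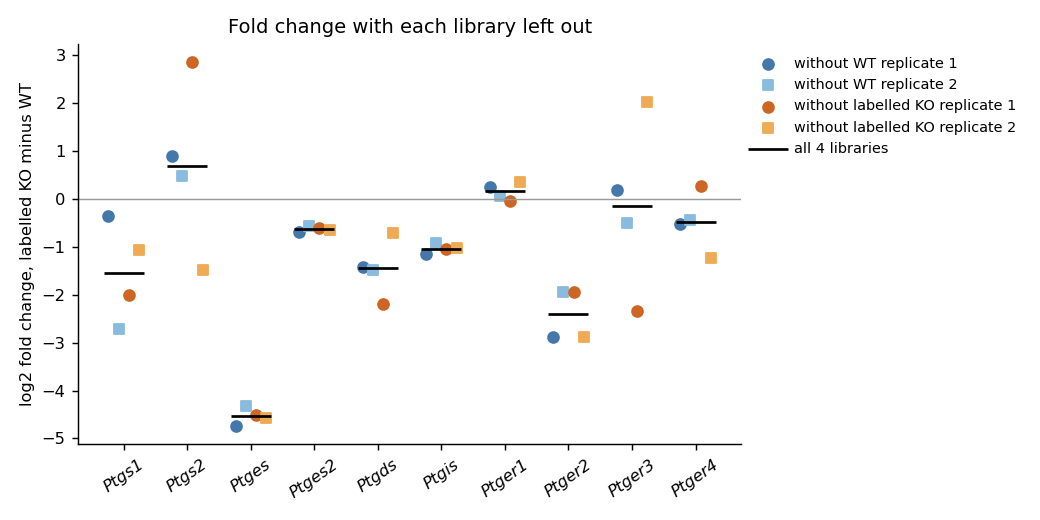
Log2 fold change of each gene (limma, log2(normalized count + 1)) with each library left out in turn, and with all 4 (black bar). Ptges stays between -4.74 and -4.33, whereas Ptgs2 runs from -1.47 to 2.855 and Ptger3 from -2.34 to 2.03.

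Of 34 other genes of prostanoid and arachidonate metabolism, listed by role, 32 were in the table and 31 were tested. An unadjusted p under 0.05 was reached by 6 that were lower (9.18% of all genes) and by 0 that were higher (4.54%), and 0 had an adjusted p under 0.05 in limma. Both KO-labelled libraries lay below both WT libraries for 12 of the 31 (25.4% of all genes) and above them for 3 (22.5%), and the median log2 fold change was -0.47. Without WT replicate 1 or without WT replicate 2, 0 of the 31 reached an unadjusted p under 0.05 in limma, where 1135 and 1380 of all genes did. With quantile normalization, and also with the replicate block, 5 were lower and 1 was higher, and 4 were lower and 1 higher without a variance trend.

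Among the genes that release arachidonic acid, 3 of the 9 tested were lower with an unadjusted p under 0.05 (9.18% of all genes), none of which kept that without WT replicate 1 or without WT replicate 2. Pla2g4a, the cytosolic phospholipase A2 that feeds the cyclooxygenases, had 734 and 509 normalized counts in WT, against 118 and 282 in the KO-labelled libraries (log2 fold change -1.74, SE 0.52, limma adjusted p = 0.283). Pla2g5, a secreted phospholipase A2, had 1043 and 923 in WT, against 309 and 9.91 in the KO-labelled libraries (-4.08, SE 1.51, limma adjusted p = 0.349). The KO-labelled libraries thus differed from each other in Pla2g5 by more, on the log2 scale, than replicate 1 differed from WT. Pla2g15, a lysosomal phospholipase, had 723 and 862 normalized counts in WT, against 401 and 501 in the KO-labelled libraries (-0.81, SE 0.32, limma adjusted p = 0.359).

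Of the other terminal synthases and reductases, 2 of 6 were lower with an unadjusted p under 0.05 in limma (9.18% of all genes), and DESeq2 called both by adjusted p (4.8% of genes called lower). Tbxas1, the thromboxane synthase of platelets and macrophages, had 42.7 and 70.8 normalized counts in WT, against 8.56 and 1.80 in the KO-labelled libraries (log2 fold change -3.44, SE 0.86, limma adjusted p = 0.231 and 0.0152 from DESeq2). Fam213b, which encodes a PGF synthase, had 224 and 242 in WT, against 71.7 and 71.2 in the KO-labelled libraries (-1.69, SE 0.40, limma adjusted p = 0.218 and 0.0191 from DESeq2). For Fam213b, as for Ptges, the libraries of each label lay close together. Ptges3 was at 2183 and 2553 normalized counts in WT, against 2700 and 3247 in the KO-labelled libraries, without overlap but with a log2 fold change of 0.33 (limma adjusted p = 0.645).

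Of the other prostanoid receptors, 0 of the 5 tested had an unadjusted p under 0.05 in limma (13.7% of all genes). Ptgfr, the receptor of PGF2α, had 123 and 109 normalized counts in WT, against 72.8 and 14.4 in the KO-labelled libraries (log2 fold change -1.79, SE 0.84, limma adjusted p = 0.427). Among the genes of breakdown and transport, Slco2a1, the carrier that takes prostaglandins up for breakdown, was the 1 of 6 with an unadjusted p under 0.05 (9.18% of all genes lower). It had 57.6 and 871 normalized counts in WT, against 1.07 and 37.9 in the KO-labelled libraries (log2 fold change -4.66, SE 1.83, limma adjusted p = 0.361 and 0.0117 from DESeq2). Within each label replicate 2 was far above replicate 1. The prostaglandin reductase Ptgr2, at 1359 and 1712 in WT, against 1353 and 672 in the KO-labelled libraries, and Zadh2, at 1501 and 1640 in WT, against 1327 and 1233 in the KO-labelled libraries, were without overlap but had adjusted p-values of 0.53 and 0.668 in limma. Of the other arachidonate oxygenases, which make leukotrienes and related lipids, 0 of 5 were without overlap (47.9% of all genes). None of these had an unadjusted p under 0.05 in limma (13.7% of all genes).

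**Figure D5:**
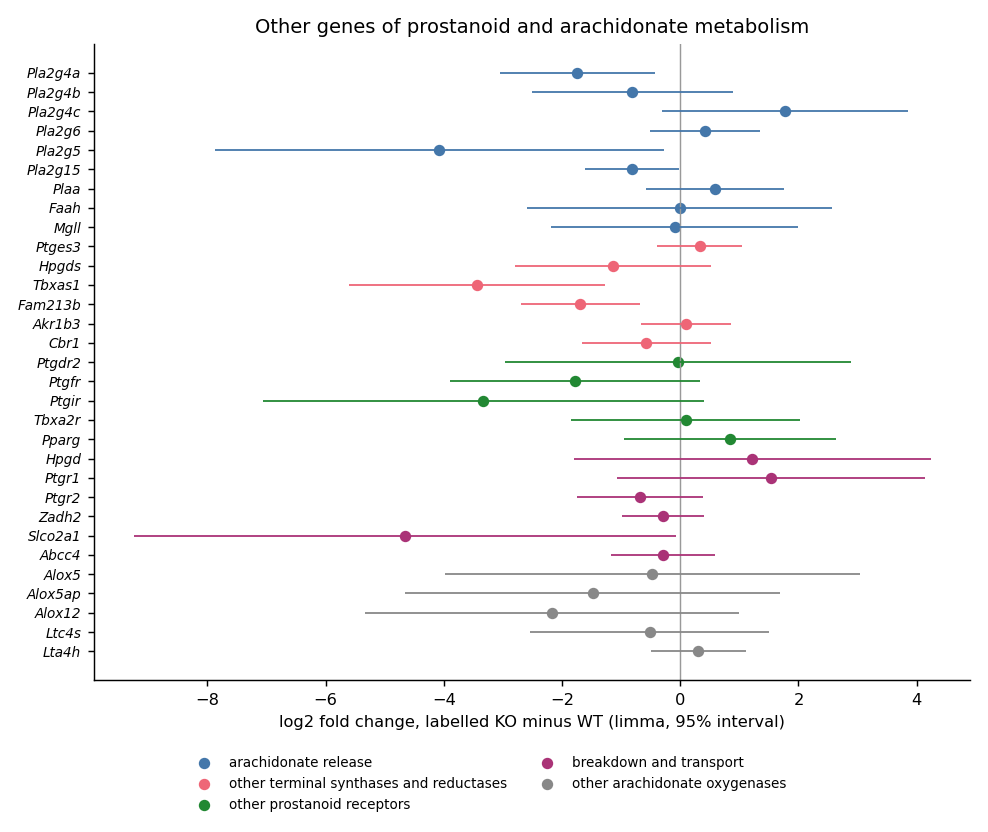
Limma log2 fold change with its 95% interval for the 31 tested companion genes, coloured by role. The intervals of Pla2g4a, Pla2g5, Pla2g15, Tbxas1, Fam213b and Slco2a1 lie below 0, and no interval lies above 0.

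Markers of other cell types also differed between the labels, and their part in the differences above was not tested. In bulk RNA, fewer cells of a type and less RNA per cell cannot be told apart. Of 15 microglial markers, 15 had a negative log2 fold change and 14 lay lower without overlap in the KO-labelled libraries (25.4% of all genes), with a median of -3.27. Their summed level was 2705 and 4498 normalized counts in WT, against 1098 and 638 in the KO-labelled libraries, and P2ry12 was at 0 in labelled KO replicate 1. The log2 fold change of Ptges, -4.54, was beyond that of Cx3cr1 (-3.49), Csf1r (-2.84) and Aif1 (-3.96), the first markers of that list, and equal to 2 decimals to that of C1qa, the lowest of it. Ptgs1 averaged 93.1 normalized counts in WT, against 24.2 in the KO-labelled libraries, and the microglial sum was also lower in the latter. Within WT, Ptgs1 was higher in replicate 1 and the microglial sum in replicate 2. Whether microglial content bears on Ptgs1 or Ptges was not tested.

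Astrocyte markers were abundant in the WT libraries and less even in the KO-labelled ones. Their summed FPKM was 1346 and 1325 in WT, against 2496 and 339.8 in the KO-labelled libraries. The mural list summed to 76.7 and 261.9 FPKM in WT, against 582.7 and 1405 in the KO-labelled libraries, so that in labelled KO replicate 2 it stood above the astrocyte list. Of that mural sum in labelled KO replicate 2, Acta2 alone held 1395 FPKM. Gfap stood at 58004 and 67297 normalized counts in WT, against 174853 and 9945 in the KO-labelled libraries, and Aldh1l1 at 4725 and 5999 against 4452 and 2490. Of the 8 astrocyte markers, 4 (Aldh1l1, Slc1a3, Aqp4 and Slc1a2) were lower and 1 (Gja1) higher without overlap, against 25.4% and 22.5% of all genes. Slc1a2, a glutamate transporter, was the 1 with an unadjusted p under 0.05, at 11394 and 5793 normalized counts in WT, against 3078 and 596.7 in the KO-labelled libraries (log2 fold change -2.58, SE 0.82, limma adjusted p = 0.301). The meningeal fibroblast list, of interest for Ptgds and Ptgis, was mixed, with 4 of 11 measured markers lower and 1 higher without overlap. It summed to 4207 and 2777 normalized counts in WT, against 2890 and 2667 in the KO-labelled libraries. Of that sum, Ogn alone held 3340 and 967 in WT, against 673 and 729 in the KO-labelled libraries. With Ogn left out, the sums of both KO-labelled libraries lay above those of both WT libraries. Col1a2, the 1 higher marker, had 283 and 764 in WT, against 1568 and 987 in the KO-labelled libraries. In normalized counts the mural list summed to 4474 and 11643 in WT, against 24561 and 51340 in the KO-labelled libraries, mostly Acta2 in the latter, while 3 of its 7 measured markers were lower and 1 higher without overlap. For the remaining lists, with the same 25.4% and 22.5% of all genes, 1 marker was lower and 1 higher in both the endothelial list (5 measured) and the oligodendrocyte lineage list (9 measured), and 1 of 4 was lower in the choroid plexus list. The meningeal marker Slc6a13 was at 0 in both KO-labelled libraries, from 1.07 and 3.68 normalized counts in WT. Ttr, the main choroid plexus marker, had 0 and 57.9 normalized counts in WT, against 1.07 and 469.6 in the KO-labelled libraries. Folr1, of the same list, had 179 and 291 in WT, against 419 and 26.1 in the KO-labelled libraries. Labelled KO replicate 2 had the lowest Ptgds. In that library Ttr and Aqp1 of this list were at their highest, Folr1 at its lowest and Otx2 at neither.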

How the data were processed

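RNA-seq of 4 astrocyte libraries was analysed, grouped by the genotype in the sample labels. Per the labels and methods, the authors filtered their paired-end reads and mapped these to mm10, with an aligner and a counter not given in the sources used here. The deposited table, named for FPKM, holds a signal for each gene in each library, and 100% of the values were whole multiples of 1 read (tolerance 0.05 reads), that is, counts divided by a size factor of 0.934 to 1.11. Reads were recovered from them, and FPKM was computed with the deposited gene lengths and library totals. The deposited log2 fold changes, p-values and group means were not used. Genotypes were compared with limma 3.58.1 in R 4.3.3 (variance trend, pseudocount 1, mean of at least 1, Benjamini-Hochberg adjustment over all genes, no block). The recovered reads also went through edgeR 4.0.16 (TMM, quasi-likelihood) and DESeq2 1.42.0. The tests were tried on simulated counts. Alternatives were other pseudocounts, filters, scalings and variance models, log2(FPKM + 0.1), a replicate block, and leaving out each library.

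The 10 genes, the companion list and the marker lists (astrocyte, microglial, meningeal fibroblast, mural, endothelial, oligodendrocyte lineage, choroid plexus) were chosen with earlier results of these data known. Companion genes were named where their unadjusted p was under 0.05, or where the labels did not overlap and the mean was at least 50 normalized counts. Gene positions of the 10 genes were the same in GENCODE M21 on GRCm38. Upstream sequences came from RefSeq on GRCm38.p6. Python 3.11.15, pandas 2.3.3, scipy 1.17.1 and matplotlib 3.10.9 were used for tables and plots. An item withheld for evaluation is not reported here.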

Additional observations from a re-analysis of the deposited data

How the results depend on the processing

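Over 16 alternatives, 158 fits of the 10 genes were made, since Ptger2 and Ptger4 fell under a mean minimum of 10. In 146 of them the gene kept its direction and its side of an adjusted p of 0.05, in 1 (Ptges in DESeq2) it passed that threshold, and in 11 the direction turned. The log2 fold change of Ptges lay between -4.74 and -4.26 in all 16, with an unadjusted p of at most 0.00919. Its adjusted p ran from 4.48e-17 to 0.93 over DESeq2, edgeR and limma. Ptger3 turned to 0.17 with a pseudocount of 5, 0.19 after quantile normalization, 0.23 as log2(FPKM + 0.1), 1.06 in edgeR and 1.10 in DESeq2, and lay from -2.34 to 2.03 when single libraries were dropped. In the same fits without 1 library, Ptgs2 ran from -1.474 to 2.855, Ptger1 from -0.041 to 0.354 and Ptger4 from -1.227 to 0.261, and Ptger4 was at 0.044 after quantile normalization. The number of the 10 genes with an unadjusted p under 0.05 was 1 (Ptges) with a pseudocount of 0.1, with a mean minimum of 10 and in edgeR, and 1 to 4 with each library left out. For the companion genes that number was 0 to 8. Over all genes, it was 1135 to 4846 with each library left out, lowest without WT replicate 1 and highest without labelled KO replicate 1. Adjusted calls numbered 2 with log2(FPKM + 0.1) and 1106 in DESeq2. Quantile normalization moved the median of all genes from -0.07 to 0.08 and the unadjusted calls from 1004 higher and 2028 lower to 1423 higher and 1490 lower. A replicate block left 2583 genes at an unadjusted p under 0.05, among them 3 of the 10 genes and 6 companion genes (5 lower, 1 higher), and 0 an adjusted one. Deviations of same-numbered libraries had a correlation of -0.084 over the genes tested. With 2 libraries per label, this cannot show whether same-numbered libraries shared a preparation. The depth limits the receptor genes most, since a count of 3 reads is 2.70 to 3.21 normalized counts.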

Other observations

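The genes that follow were chosen after their values were seen. Ptgr1, a reductase that inactivates prostaglandins and leukotriene B4, had 258 and 567 normalized counts in WT, 382 in labelled KO replicate 1 and 3230 in labelled KO replicate 2, the library that was also high in Ptgs2. Its log2 fold change was 1.54 (limma adjusted p = 0.563). Mgll, the lipase that releases arachidonic acid from an endocannabinoid, had 611 and 723 in WT, against 1504 and 257 in the KO-labelled libraries, so that these lay on either side of WT with replicate 1 the higher, as for Ptger3. Ptgir, the prostacyclin receptor, had 56.5 and 34.0 in WT, against 0 and 18.9 in the KO-labelled libraries (limma adjusted p = 0.408). Hpgds, the PGD synthase of blood and immune cells, had 23.5 and 24.8 in WT, against 8.56 and 12.6 in the KO-labelled libraries (limma adjusted p = 0.498).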
